A study of Mus musculus with 14 samples.

Results

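Cells that had been replated 5 times in culture after Tet2 deletion were compared with Tet2-deleted common myeloid progenitors (CMP) sorted from bone marrow. The comparison uses 4 of the 14 arrays of the series, the 2 arrays of the fifth plating and the 2 arrays of knockout (KO) CMP, chosen by their titles, and every probe set of the array. Tet2 converts methylated cytosine to its oxidised forms. The replated cells began as LSK cells (lineage-negative, c-Kit-positive and Sca1-positive) sorted for CD150, an antigen of blood stem cells, from mice without Tet2. KO CMP were lineage-negative, c-Kit-positive and Sca1-negative cells with CD34 and a low level of the Fc gamma receptor, sorted 4 weeks after deletion. The other groups, of 2 arrays each, were KO LSK, KO GMP (granulocyte-macrophage progenitors), and LSK, CMP and GMP of wild-type (WT) littermates. KO mice are labelled Tet2-/- Mx+ and WT mice Tet2+/+ Mx+, and LSK were also taken 4 weeks after deletion, while GMP carry no stated time.

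All mice carried Mx, the interferon-responsive transgene through which pIC injection induces deletion in many cell types, on a B6/129 background, so WT cells share the transgene and no group lacks it. No replated WT group was analysed here, so the effects of culture, of the starting cell and of genotype on the replated cells cannot be told apart. The labels do not say whether paired arrays come from different animals or cultures, and p-values here reflect only the spread between these samples, which may be technical.

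CMP are bone marrow progenitors that can form granulocytes, macrophages, red cells and platelets, and some of them can also become basophils and mast cells. Mast cells are tissue-resident immune cells that store proteases, histamine and serotonin bound to heparin in their granules and release them when IgE on their surface meets antigen. They depend on the receptor Kit and on the transcription factors Mitf and Gata2. Among the sorted groups CMP was chosen as the reference because its gate takes in cells with early mast cell transcripts. Some of these transcripts were also read in KO GMP, as given below.

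The replated arrays stood apart from all 12 sorted arrays on the first principal component, which held 41.2% of the variance, with scores of 209 and 210.3 against -39.3 to -28.4. The correlation of log2 values between the 2 arrays was 0.9929 for replated cells and 0.9723 for KO CMP, and between the groups it lay between 0.898 and 0.909. Array medians lay between 31.2 and 33.0, and the highest control probe set for bacterial transcripts, taken as the floor of an array, lay between 20.8 and 27.8. The 2 groups differed in sex-linked expression: Xist was at 6081 in KO CMP and 20.1 in replated cells, and the Y-linked Eif2s3y at 11.2 and 2069. The 626 genes of the X and Y chromosomes were therefore left out of all counts, which left 17568 genes with 1 probe set each, and the part of sex in the differences of other genes was not tested. WT CMP, with Xist at 28.1 and Eif2s3y at 1127, served as a second reference without that difference. Of the 2 probe sets for Tet2, one was at 2011 and 1943 in KO CMP and 1786 and 1823 in replated cells. These pairs did not overlap, but the log2 difference of -0.13 was smaller than its SE of 0.39. That SE is limma's, from the fit of all groups, and the difference did not pass (adjusted p = 0.896). The other probe set was at 81.5 and 45.2 in KO CMP and 779.8 and 795.8 in replated cells (3.70 ± 0.66, adjusted p = 0.00391). Where these probe sets lie with respect to the deletion is unknown here, and they check nothing about genotype.

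Expression differed broadly between replated cells and KO CMP. Limma called 3958 of the 17568 genes at an adjusted p below 0.05, which is 22.5%, of which 1661 were higher in replated cells (9.45% of all genes) and 2297 lower (13.1%). At least 4-fold changes made up 670 of the higher and 845 of the lower genes, while the median log2 difference over all genes was -0.07. Of the 10308 genes above the floor on all 4 arrays 3078 were called, and of the 4968 at or below it on all 4 arrays 50. The share over all genes is therefore a low reference for a list whose members lie mostly above the floor. Counts of list members below are to be read beside the shares over all genes, 9.45% higher and 13.1% lower. A list member counts as measured where a probe set names that gene alone, also where it lay below the floor. Genes described as measured in both groups or on all 4 arrays lay above the floor on all 4. A further view needs no test: 439 genes (2.50%) lay above the floor on both replated arrays and on neither KO CMP array, and 415 genes (2.36%) showed the opposite pattern. The 2 arrays of one group did not overlap with those of the other at 61.5% of all genes, so non-overlap alone says little here. Without the first replated array 2535 genes were called and without the second 2427, in fits where the lone array is assumed to vary like the other groups. Below, intensities are deposited RMA values given for both arrays of each group in turn, and adjusted p-values are limma's. Differences are log2 differences of replated cells minus KO CMP ± SE (n = 2 arrays a group). Unless another fit is named, the SE and p-values come from the fit of all groups. They therefore also reflect spread within groups other than the 2 compared. Where KO CMP or the replated cells lay at or below the floor on both arrays, the difference is given as at least a number of folds against that floor. Where 1 array of a pair lay at or below its floor, as for Gzmb, Tpsg1, Klf1, S100a9, Camp, Aqp1, Flt3, Cd79b, Ctsl, Itgal and Scd1, the difference rests in part on a value not above background. In bulk RNA, fewer cells of a type and less RNA per cell cannot be told apart.

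**Figure D1:**
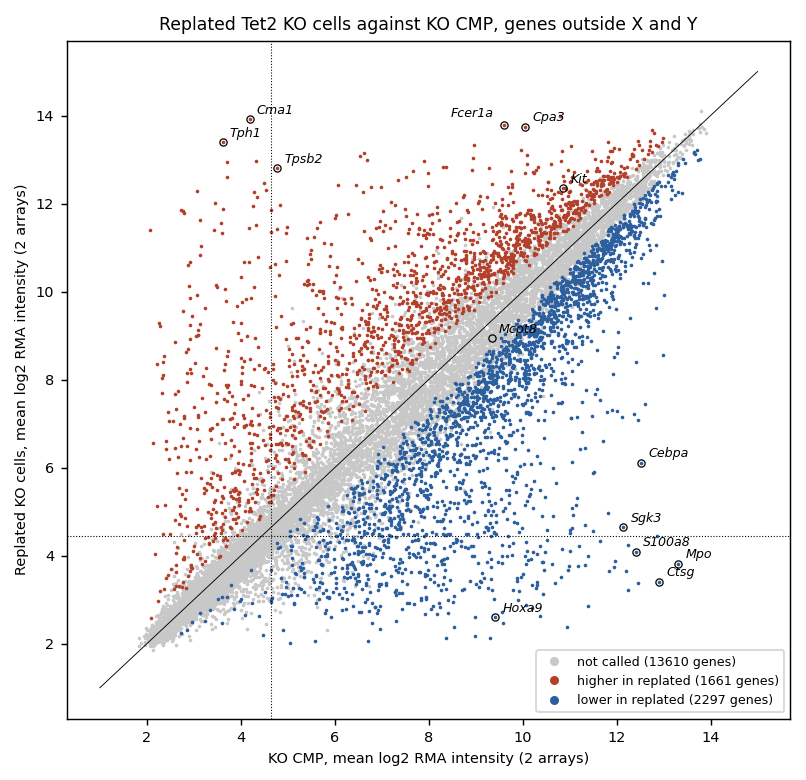
Mean log2 RMA intensity of the 2 KO CMP arrays (horizontal axis) against that of the 2 replated arrays (vertical axis), 1 point per gene outside X and Y. Red and blue points passed the test (1661 higher and 2297 lower in replated cells), grey points did not, dotted lines are the mean floors and the solid line marks equal values. Cma1, Tph1 and Tpsb2 sit at the upper left, Mpo, Ctsg and S100a8 at the lower right, and Mcpt8 near the diagonal.

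The granule proteins of mast cells and basophils were the group with the highest median difference of the 33 lists. Of 18 genes on the list 15 were measured. In replated cells 12 rose and 1 fell, with a median difference of 5.39 (3.70 with values below the floor raised to it), against -0.07 for all genes. Cpa3, the carboxypeptidase of mast cell granules, was at 919.8 and 1216 in KO CMP and 13438 and 14150.3 in replated cells. It rose by 3.70 ± 0.33 (adjusted p = 6.74e-05), from a level in KO CMP that was already well above the floor. Cma1, a chymase, was at 18.2 and 18.3 in KO CMP and 15287 and 15568 in replated cells. Both KO CMP arrays lay below the floor and both replated arrays were bright, so that Cma1 was at least 613-fold higher (adjusted p = 4.77e-09).

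The same pattern was seen for the mucosal proteases Mcpt1 and Mcpt2, the connective tissue protease Mcpt4 and the tryptase Tpsab1. Mcpt4 was at 6.70 and 6.63 in KO CMP and 3671 and 3725 in replated cells, at least 147-fold higher, and Mcpt2 at 7.26 and 6.64 in KO CMP and 3533 and 3554 in replated cells, at least 141-fold higher. Tpsab1 was at least 44.5-fold and Mcpt1 at least 8.29-fold higher. All 4 genes were below the floor on both KO CMP arrays. Tpsb2, the other main tryptase, was just above the floor in KO CMP at 26.9 and 27.8 and reached 7293 and 6997 in replated cells, a difference of 8.03 ± 0.34 (adjusted p = 4.21e-07). A second probe set of Tpsb2 also rose, by 4.01 ± 0.23. These proteases are close relatives of one another, and the probe sets used for Cma1, Mcpt4, Tpsab1 and Tpsb2 are of a type that can read several transcripts, so the share of each relative is uncertain.

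Gzmb, a serine protease of cytotoxic and mast cell granules, was at 14.9 and 27.0 in KO CMP and 7697 and 8206 in replated cells, with 1 of the 2 KO CMP arrays above the floor, and rose by 8.63 ± 0.73 (adjusted p = 4.45e-05). The tryptase Tpsg1 rose by 5.94 ± 0.15, the lysosomal protease Ctsd by 2.67 ± 0.14 and the protease inhibitor Serpinb1a by 1.63 ± 0.14. Srgn, the core protein to which heparin is attached, was already bright at 8057 and 8216 and reached 11208 and 11848. Its difference of 0.50 ± 0.11 passed in all 14 arrays (adjusted p = 0.011) but not in the fit of the 4 arrays alone, nor without the first KO CMP array or the second replated array (adjusted p up to 0.103). The one granule gene of the list that fell was Ctsg, cathepsin G, which neutrophils and their precursors also store. It was at 7646 and 7727 in KO CMP and 10.5 and 10.7 in replated cells, at least 354-fold lower in replated cells. Mcpt8, the basophil protease, was at 779 and 543 in KO CMP and 496 and 485 in replated cells, and Ctse, another granule protease, at 1667 and 265 in KO CMP and 3673 and 4070.3 in replated cells. Neither passed (adjusted p = 0.357 and 0.202), and the 2 KO CMP arrays of Ctse were far apart.

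Promoter sequences, taken from RefSeq on GRCm38.p6, are shown for 4 proteases and receptors to set the genes that were already read in KO CMP beside those that were not. They were picked after their values were seen. Each run covers the 250 bases before the transcription start, 5′ to 3′ on the gene's own strand, and capitals mark AGATAA or TGATAA, the core that GATA factors recognise, or its reverse complement.
Cpa3, chr3:20242182-20242431, minus strand: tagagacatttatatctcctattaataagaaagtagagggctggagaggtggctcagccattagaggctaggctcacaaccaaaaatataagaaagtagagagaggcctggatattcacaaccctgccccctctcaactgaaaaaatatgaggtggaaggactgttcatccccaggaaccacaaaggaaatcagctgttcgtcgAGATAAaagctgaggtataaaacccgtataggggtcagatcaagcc
Ms4a2, chr19:11623720-11623969, minus strand: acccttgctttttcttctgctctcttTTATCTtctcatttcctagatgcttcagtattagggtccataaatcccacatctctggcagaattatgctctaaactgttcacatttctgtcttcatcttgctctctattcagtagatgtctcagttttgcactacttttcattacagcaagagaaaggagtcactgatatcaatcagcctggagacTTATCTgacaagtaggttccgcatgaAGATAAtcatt
Mcpt4, chr14:56062311-56062560, minus strand: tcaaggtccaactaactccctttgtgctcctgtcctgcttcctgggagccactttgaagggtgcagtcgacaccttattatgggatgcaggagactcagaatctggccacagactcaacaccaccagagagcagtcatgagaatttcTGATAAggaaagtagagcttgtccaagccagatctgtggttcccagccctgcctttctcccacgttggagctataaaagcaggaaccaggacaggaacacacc
Cma1, chr14:55944676-55944925, minus strand: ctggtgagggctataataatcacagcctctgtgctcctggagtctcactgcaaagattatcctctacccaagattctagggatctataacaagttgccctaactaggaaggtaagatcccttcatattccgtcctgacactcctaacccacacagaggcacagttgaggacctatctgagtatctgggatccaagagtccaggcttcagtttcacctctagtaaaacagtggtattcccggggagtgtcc
The core occurs 1 time in the Cpa3 window, with its first base 46 bases before the start, 3 times in that of Ms4a2, 1 time in that of Mcpt4 and 0 times in that of Cma1. Of the 34 genes of granule proteins, receptors and mediators that rose, 25 had a promoter in the table, with 30 promoters in all. The GATA core was present in 10 of the 30 (33.3%), against 5194 of 31396 promoters of the table (16.5%), on either strand. The E-box CANNTG was present in 19 (63.3% against 66.1%), the M-box TCATGTG, which Mitf can bind and which always contains an E-box, in 3 (10% against 3.25%), and TTCNNNGAA, bound by STAT factors, in 1 (3.33% against 7.06%). These shares are descriptions of short windows.

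Receptors and surface proteins of mast cells followed. Of 23 genes 20 were measured, 14 rose and 1 fell, and the median difference was 2.88 (2.70 with values raised to the floor). The 3 chains of the high-affinity IgE receptor all rose. Fcer1a, its alpha chain, was at 745 and 823 in KO CMP and 13629 and 14796 in replated cells (4.18 ± 0.54, adjusted p = 0.000629). Ms4a2, the beta chain, was at 267 and 375 in KO CMP and 7214 and 7369 in replated cells (4.52 ± 0.65, adjusted p = 0.0012), and Fcer1g, the gamma chain shared with other Fc receptors, at 2840.3 and 3197 in KO CMP and 6653 and 7124 in replated cells (1.19 ± 0.19). In each of the 3 the replated arrays lay clear of the KO CMP arrays, as at 61.5% of all genes, and the lower pair was well above the floor on the probe set used. A second Ms4a2 probe set also rose, by 6.99 ± 0.46, but from a KO CMP mean of 31.6, in part not above the floor. The level of Ms4a2 in KO CMP thus depends on the probe set.

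Kit, the receptor for stem cell factor, was part of the gate of every sorted population and was at 1868 and 1845 in KO CMP and 4913 and 5568 in replated cells, a rise of 1.49 ± 0.19 (adjusted p = 0.000607). Csf2rb, the chain shared by the receptors for interleukin 3, interleukin 5 and GM-CSF, rose by 3.25 ± 0.20, and its close relative Csf2rb2, which is used by the interleukin 3 receptor of mice, by 6.54 ± 0.92. The KO CMP arrays of Csf2rb2 lay far apart, at 312 and 27.6, and the replated arrays were at 8303 and 8982. Il3ra, the private chain of that receptor, did not pass at 225 and 178 in KO CMP and 171 and 164 in replated cells (-0.25 ± 0.27). The signalling adaptors Lat, Lat2 and Gab2, which sit below the IgE receptor and Kit, rose by 2.88 ± 0.47, 2.51 ± 0.37 and 3.47 ± 0.37. Il4ra, the interleukin 4 receptor, rose by 2.89 ± 0.26.

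Among receptors that were below the floor on both KO CMP arrays, Cd200r3, an activating receptor of mast cells and basophils, was at 7.03 and 6.67 in KO CMP and 3559 and 3742 in replated cells, at least 145-fold higher. Hrh4, a histamine receptor, was at least 20.4-fold higher and Adora3, an adenosine receptor, at least 5.09-fold. Cd200r4 was measured in both groups and rose by 5.82 ± 0.63. Siglecf, a lectin of eosinophils and early mast cells, was the 1 gene of the list that fell. It was at 609.8 and 618 in KO CMP and 9.89 and 9.40 in replated cells, at least 28.2-fold lower in replated cells. Itgb7, an integrin of mast cell precursors, was at 253 and 408 in KO CMP and 816 and 847 in replated cells and did not pass (adjusted p = 0.168). Enpp3, Ptgdr2 and Ccr3, all linked to basophils or eosinophils, lay at or below the floor in both groups.

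Of 14 genes that make or store mediators 12 were measured, 8 rose and 0 fell, with a median difference of 2.40 (1.70 with values raised to the floor). Tph1, which carries out the first step of serotonin synthesis, was at 11.6 and 12.9 in KO CMP and 9539.6 and 12197 in replated cells. It lay below the floor on both KO CMP arrays and was at least 429-fold higher in replated cells (adjusted p = 1.16e-08). Ddc, the next enzyme of that pathway, was at least 11.2-fold higher, Slc6a4, the serotonin transporter, at least 3.03-fold, and Slc18a2, which loads amines into granules, rose by 2.98 ± 0.22 from 972 and 770.1 to 6476 and 7151. Hdc, the enzyme that makes histamine, did not pass, at 252 and 534 in KO CMP and 967 and 855 in replated cells (1.31 ± 0.95, adjusted p = 0.446). Its arrays did not overlap, which also held for 61.5% of all genes.

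In the eicosanoid pathway, Alox5, which starts leukotriene synthesis, rose by 5.66 ± 0.33 from 68.7 and 60.6 to 3096 and 3465. Hpgds, the prostaglandin D synthase of blood cells, rose by 4.25 ± 0.59 and Alox5ap, the partner of Alox5, by 0.82 ± 0.16. Ltc4s, which makes leukotriene C4, rose by 1.83 ± 0.48 (adjusted p = 0.0278), a call that was lost without any 1 of the 4 arrays and with WT CMP as the reference (adjusted p up to 0.143). Ptgs2 was at 76.4 and 150.0 in KO CMP and 42.0 and 56.0 in replated cells and did not pass, and Ptges lay at or below the floor in both groups.

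Cytokines of mast cells and basophils moved in both directions: of 17 genes 16 were measured, 6 rose and 4 fell, and the median was 0.24 (0.03 with values raised to the floor). Il6 was at 54.1 and 39.8 in KO CMP and 1011 and 1326 in replated cells and rose by 4.64 ± 0.53 (adjusted p = 0.000301). Ccl2, a monocyte attractant, rose by 5.26 ± 0.20, from 42.9 and 47.1 to 1851 and 1605. Il4 and Lif, below the floor on both KO CMP arrays, were at least 8.89-fold and at least 51.6-fold higher. Osm, a cytokine of the interleukin 6 family, and Vegfa, a growth factor for vessels, rose by 2.03 ± 0.44 and 1.25 ± 0.24, calls that were lost without the second replated array, and for Osm also without the first replated or the first KO CMP array. The 4 that fell were chemokines: Ccl9 (-5.17 ± 0.17), Ccl4 (-4.33 ± 0.70), Ccl6 (-3.24 ± 0.29), and Ccl3, at least 7.63-fold lower. Ccl4 was at 667 and 1044 in KO CMP and 54.7 and 31.6 in replated cells, and its call was lost with WT CMP as the reference (adjusted p = 0.0603). Il5, Il9, Il13 and Csf2 lay at or below the floor in both groups, and Tnf was at 40.4 and 42.5 in KO CMP and 54.2 and 56.8 in replated cells and did not pass.

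Of the enzymes that build heparan sulfate and heparin, 18 of 21 were measured, 6 rose, 1 fell, and the median was 0.25. Ndst2, the sulfotransferase on which mast cell heparin depends, was at 223 and 149 in KO CMP and 6291 and 6141 in replated cells, a rise of 5.09 ± 0.54 (adjusted p = 0.000196). Papss2, which makes the sulfate donor, was at 498 and 507 in KO CMP and 10037 and 10545 in replated cells (4.36 ± 0.20). The other called enzymes differed less: Hs6st1, Hs2st1, Papss1 and B4galt7 rose by between 0.54 and 1.21, and the epimerase Glce fell (-0.72 ± 0.15). Papss1 did not pass without the first replated array (adjusted p = 0.0552), nor Glce without the second (adjusted p = 0.0558), and B4galt7 did not pass without any 1 of the 4 arrays (adjusted p up to 0.212). With a minimum of 2-fold 3 of the 7 calls were left.

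Transcription factors of the mast cell, basophil and erythroid programmes were measured for 17 of 18 genes, and Gata1, on the X chromosome, was left out. 7 rose, 2 fell, and the median was 0.55. Mitf was at 688 and 572 in KO CMP and 7097 and 7323 in replated cells and rose by 3.52 ± 0.36 (adjusted p = 0.000162), and a second probe set rose by 3.77 ± 0.33. Gata2 was at 6747 and 7067 in KO CMP and 13222 and 12824 in replated cells, a smaller rise of 0.92 ± 0.14 (adjusted p = 0.00143) from an already bright level. Bhlhe40, a repressor found in activated and IgE-armed cells, was at 30.0 and 27.0 in KO CMP and 4092 and 3893 in replated cells, the second largest rise among genes measured in both groups (7.13 ± 0.49). Ikzf2, an Ikaros family member, rose by 0.89 ± 0.12. Tal1, Maf and Runx1 rose by 1.07 ± 0.23, 2.36 ± 0.54 and 0.55 ± 0.12, and all 3 lost the call without either replated array or the second KO CMP array, and Maf also without the first KO CMP array (adjusted p up to 0.0627, 0.0962 and 0.0867), although 4 of the 5 other Runx1 probe sets also had an adjusted p below 0.05 in the same direction. Klf1, the master factor of red cells, fell, with KO CMP arrays at 369 and 129.9 and replated arrays at 24.5 and 17.9, and so did Lmo2 (-1.63 ± 0.12). Myb, Stat5a and Stat5b did not pass, with differences between -0.23 and 0.33.

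**Figure D2:**
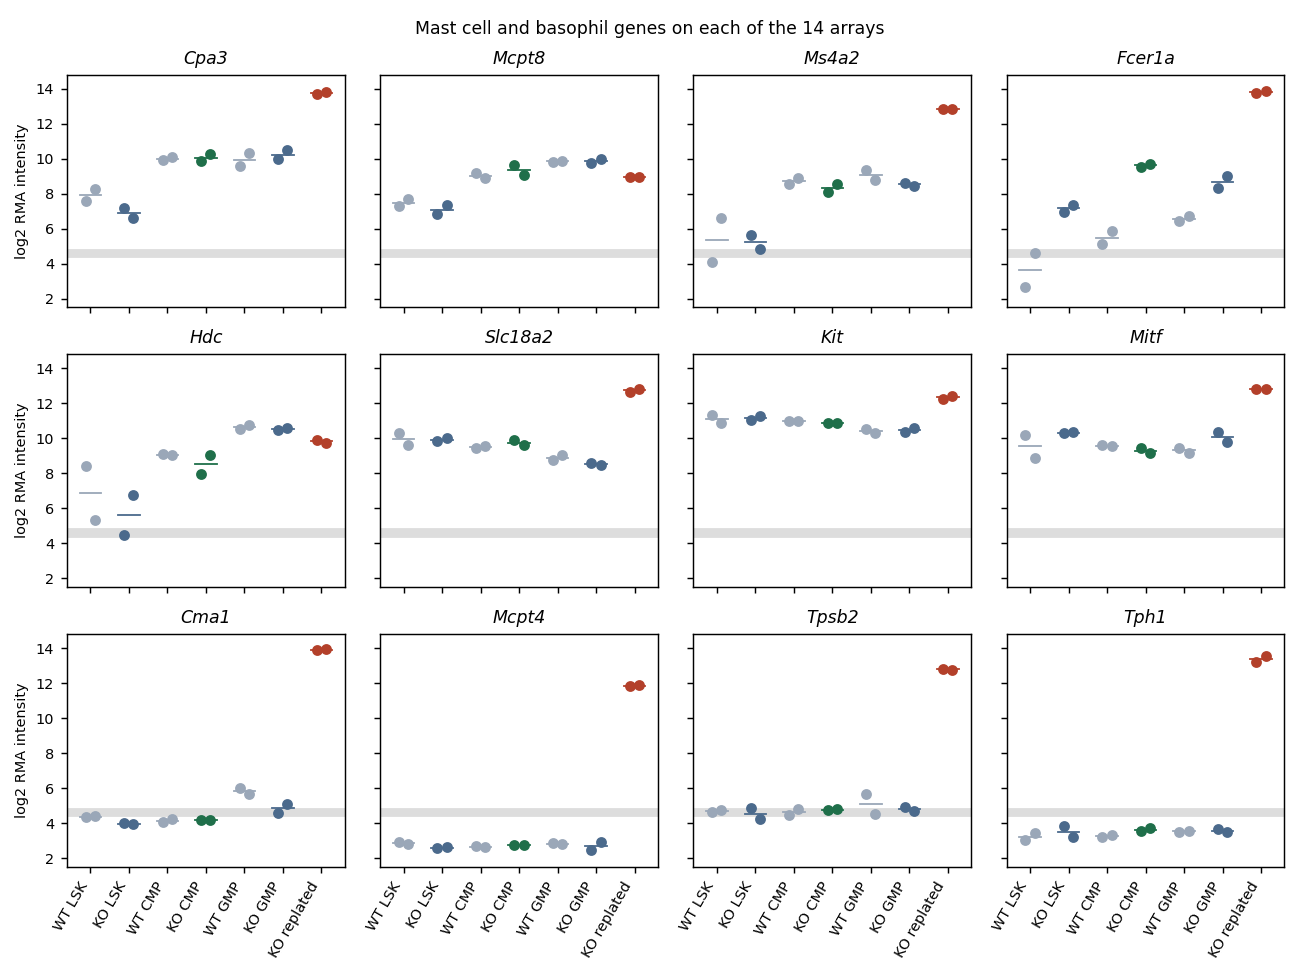
Log2 RMA intensity of 12 mast cell and basophil genes on all 14 arrays, 2 points per group with their mean as a bar and the range of floors in grey. Cpa3, Mcpt8, Ms4a2 and Hdc were above the floor in CMP and GMP of both genotypes, while Cma1, Mcpt4, Tpsb2 and Tph1 were high on the 2 replated arrays and near or below the floor in CMP.

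How far KO CMP itself carried mast cell transcripts was read from the sorted KO arrays. KO CMP minus KO LSK called 132 of 17568 genes (0.751%), 45 of them higher in KO CMP (0.256%), and KO CMP minus KO GMP called 98 (0.558%), 48 higher (0.273%) and 50 lower (0.285%). These small counts moved with single arrays. Against KO LSK they were 250 and 257 without the first and second KO LSK array and 63 without the second KO CMP array, and against KO GMP 17 and 39 without the first and second KO GMP array and 52 without the second KO CMP array. Cpa3 was at 144 and 98.0 in KO LSK, 919.8 and 1216 in KO CMP and 991 and 1453 in KO GMP. It was higher in KO CMP than in KO LSK (3.15 ± 0.33, adjusted p = 0.00841) and was not called against KO GMP (-0.18, adjusted p = 0.979). Mcpt8 was at 113 and 163 in KO LSK, 779 and 543 in KO CMP and 857 and 1022 in KO GMP. It passed against KO LSK (2.26 ± 0.25, adjusted p = 0.0106) but not against KO GMP (-0.53, adjusted p = 0.641). Both calls against KO LSK held without each of the 8 KO arrays in turn. Of the 15 granule genes measured, 3 were called higher in KO CMP than in KO LSK, the third being Ctsg, which lost the call without 7 of the 8 KO arrays, and 0 were called in either direction against KO GMP.

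Ms4a2 was at 50.4 and 28.8 in KO LSK, 267 and 375 in KO CMP and 395 and 345 in KO GMP, with no call between CMP and either of the others (adjusted p = 0.0912 and 0.995). Hdc, at 22.1 and 109.7 in KO LSK, 252 and 534 in KO CMP and 1438 and 1548 in KO GMP, was not called either (adjusted p = 0.256 and 0.631). Cd200r3 was at 7.03 and 6.67 in KO CMP and 28.1 and 20.1 in KO GMP, where 3 of these 4 arrays lay below their floor, so no order is read from them. On the probe sets used, Cpa3, Mcpt8, Ms4a2 and Hdc were thus above the floor in KO GMP as well as in KO CMP. None of the 3 mast cell lists of granule proteins, receptors and mediators had a member called higher in KO CMP than in KO GMP. Fcgr3, one of the Fc gamma receptor genes by whose product CMP and GMP are told apart in the sort, was lower in KO CMP, at 750.2 and 1035 against 3382 and 4016 (-2.06 ± 0.22, adjusted p = 0.00719), a call that was lost without either KO GMP array (adjusted p up to 0.0562). In replated cells Fcgr3 was at 5454 and 5258, higher than in KO CMP by 2.60 ± 0.22.

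Fcer1a lay at different levels in the 2 references. It was at 34.9 and 57.3 in WT CMP and 745 and 823 in KO CMP (KO minus WT 4.13 ± 0.54, adjusted p = 0.0385), so the replated cells were above WT CMP by 8.31 ± 0.54 and above KO CMP by 4.18 ± 0.54. The call between KO and WT CMP was lost without 12 of the 14 arrays in turn (adjusted p up to 0.134), and the 2 groups also differ in Xist and Eif2s3y as given above, so genotype and sex cannot be told apart there. In KO LSK it was at 125 and 160.5 and in KO GMP at 321 and 505, and KO CMP was not called against either (adjusted p = 0.0988 and 0.739). KO CMP minus WT CMP called 16 genes in all (0.0911%), 10 of them higher (0.0569%) and 6 lower (0.0342%) in KO CMP.

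Most listed genes of the granulocyte lineage were lower in replated cells. Of 14 primary granule genes 13 were measured, 10 fell, 1 rose and the median was -4.98 (-4.52 with values raised to the floor). Mpo, the myeloperoxidase of neutrophil precursors, was at 10176 and 10163 in KO CMP and 14.1 and 14.2 in replated cells, at least 468-fold lower (adjusted p = 9.8e-10). Both replated arrays lay below the floor and both KO CMP arrays were bright. The neutrophil proteases Prtn3 and Elane were at least 184-fold and at least 94.4-fold lower, and Nkg7 and Ms4a3, of granule membranes and early granulocytes, fell (-5.37 ± 0.17 and -4.52 ± 0.14). Cst7, a cystatin, was the member that rose (1.56 ± 0.27). The summed intensity of the 13 genes was 56627 and 55490.2 in KO CMP and 16114 and 16769 in replated cells, so some members stayed well above the floor there.

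Late neutrophil genes fell in 10 of 13 measured (of 19 listed), with 0 risen and a median of -4.11 (-3.73 with values raised to the floor). S100a8, a chain of calprotectin, was at 6107 and 4822 in KO CMP and 16.4 and 17.7 in replated cells, at least 249.8-fold lower, and its partner S100a9 fell (-8.41 ± 0.19) from 8193 and 6724 to 22.4 and 21.3, the last of which lay below its floor. Ngp, a secondary granule protein, was at least 84.0-fold lower, Camp, the cathelicidin, fell (-6.50 ± 0.33), and lysozyme, Lyz2 (-5.12 ± 0.20). Summed over the 13 genes, intensity was 23748 and 19905 in KO CMP and 369.6 and 306.2 in replated cells. S100a8 was also bright in the sorted LSK arrays, at 4311 and 6211 in KO LSK, and the part of neutrophil RNA in the sorted arrays was not tested.

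The myeloid transcription factors were measured for 18 of 21 genes (median -0.40). Of these 2 rose (11.1%, against 9.45% of all genes) and 5 fell (27.8%, against 13.1%). Cebpa, on which granulocyte formation depends, was at 6348 and 5494 in KO CMP and 62.7 and 75.8 in replated cells, a difference of -6.42 ± 0.14 (adjusted p = 1.06e-08). Irf8, a factor of monocytes and dendritic cells, was at 1914 and 1702 in KO CMP and 13.7 and 9.52 in replated cells, at least 83.1-fold lower. Spi1, the gene of PU.1, was at 224 and 207 in KO CMP and 131 and 126 in replated cells, a difference of -0.74 ± 0.18 whose call was lost without any 1 of the 4 arrays (adjusted p up to 0.111), and Cebpd fell (-1.77 ± 0.44), also lost without 3 of the 4 arrays. Id2, an inhibitor of E proteins, rose by 5.09 ± 0.32, from 163 and 251 to 6508 and 7299. Gfi1 and Cebpb did not pass. The 7 calls of this list became 3 without the first KO CMP array or without the second replated array.

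Monocyte, macrophage and dendritic cell genes fell in 11 of 22 measured (of 25 listed), with 1 risen and a median of -1.06 (-0.72 with values raised to the floor). Of the 22, 6 lay at or below the floor on all 4 arrays and 5 above it on all 4. Against WT CMP 8 fell and the median was -0.31. Csf1r, the receptor for M-CSF, was at 758 and 1516 in KO CMP and 8.75 and 6.14 in replated cells, at least 49.3-fold lower, with the KO CMP arrays apart from each other and both replated arrays below the floor. Mpeg1, a pore-forming protein of phagocytes, was at least 44.8-fold lower, the protease Ctss at least 49.6-fold and the co-receptor Cd14 at least 4.72-fold. The chemokine receptor Cx3cr1 was the 1 that rose (1.41 ± 0.25), and Itgam lay at or below the floor in both groups.

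MHC class II genes fell in 8 of 10 measured (of 11 listed), 0 rose, and the median was -2.61 (-1.08 against WT CMP). H2-Ab1 was at 585 and 756 in KO CMP and 30.9 and 34.4 in replated cells (-4.35 ± 0.40), H2-DMa fell (-3.78 ± 0.32) and Cd74, the invariant chain (-3.24 ± 0.52). Against WT CMP 5 of the 10 fell, and Cd74 was not called (adjusted p = 0.235). WT CMP arrays of Cd74 were at 56.1 and 65.0, compared with 200.02 and 380.0 in KO CMP and 28.6 and 29.9 in replated cells.

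**Figure D3:**
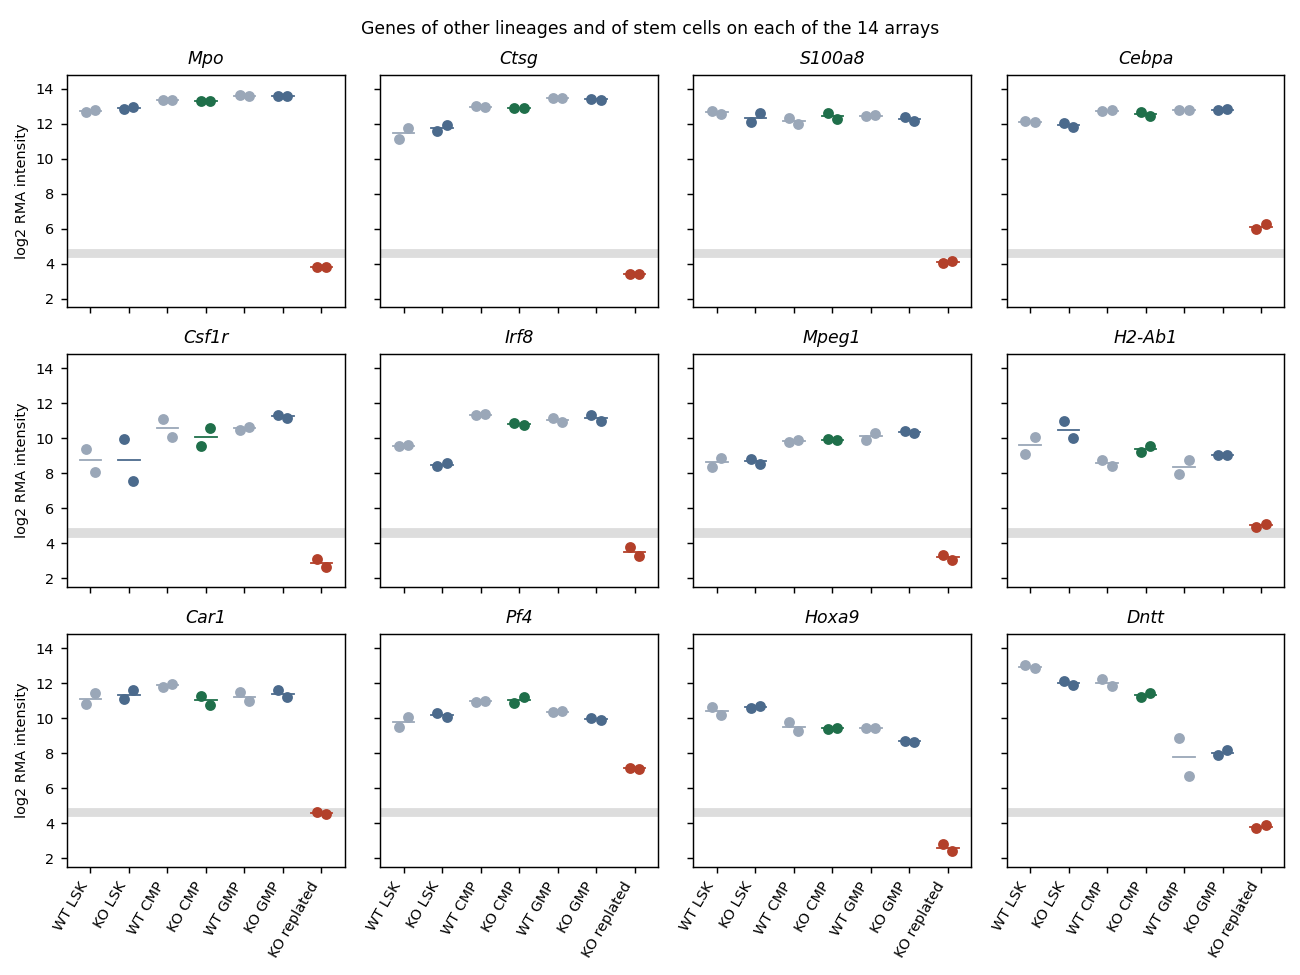
Log2 RMA intensity of 12 genes of other lineages and of stem cells on all 14 arrays, 2 points per group with their mean as a bar and the range of floors in grey. The 2 replated arrays were lowest for each of the 12 genes, and Mpo, Ctsg, S100a8, Csf1r, Irf8, Mpeg1, Hoxa9 and Dntt lay below the floor there.

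Erythroid genes fell in 9 of 15 measured (of 20 listed) and rose in 0, with a median of -2.38 (-2.06 with values raised to the floor). Car1, a carbonic anhydrase of early red cells, was at 2457 and 1722 in KO CMP and 24.4 and 23.3 in replated cells (-6.43 ± 0.30), and Car2 fell (-2.38 ± 0.15). The water channel Aqp1 and the lipid transporter Mfsd2b fell (-5.25 ± 0.41 and -3.98 ± 0.34). Hba-a1, an alpha globin gene, was below the floor in both groups. Megakaryocyte and platelet genes split, with 6 risen and 6 fallen of 18 measured (of 20 listed) and a median of 0.06. Pf4, a chemokine of platelet granules, was at 1858 and 2336 in KO CMP and 143 and 137 in replated cells and fell (-3.90 ± 0.20), and Selp, P-selectin, was at least 63.8-fold lower. Itgb3, an integrin chain shared by platelets and mast cells, was at 969 and 978 in KO CMP and 3492 and 3511 in replated cells and rose by 1.85 ± 0.22, and Rab27b, a regulator of granule release in both cell types, rose by 2.28 ± 0.23. The summed intensity of the 15 erythroid genes was 16569.6 and 13254 in KO CMP and 2729 and 2455 in replated cells. Of 6 eosinophil genes measured (of 9 listed) 4 lay below the floor in both groups, among them Epx and Prg2. Siglecf fell as given above and Il5ra was at least 1.55-fold higher, a call that was lost without any 1 of the 4 arrays.

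Of 24 stem cell regulators 23 were measured, with a median of -0.28 (-0.14 against WT CMP). Of these 3 rose (13.0%, against 9.45% of all genes) and 7 fell (30.4%, against 13.1%). Hoxa9, a homeobox factor of stem and progenitor cells, was at 677 and 687 in KO CMP and 6.91 and 5.31 in replated cells, at least 31.4-fold lower (adjusted p = 5.68e-08). Hoxa10 was at least 30.1-fold lower, Hlf, a factor of stem cells, fell (-4.51 ± 0.42) and Etv6 (-1.16 ± 0.12). Meis1, the partner of Hoxa9, was at 279 and 237 in KO CMP and 434 and 421 in replated cells and did not pass (0.73 ± 0.80, adjusted p = 0.65), nor did Bmi1, Mecom or Erg. The 2 other Meis1 probe sets, both above the floor, differed the other way without passing (-1.22 ± 0.37, adjusted p = 0.0519, and -1.26 ± 0.64, adjusted p = 0.243), so Meis1 has no settled direction here. Surface genes of stem and progenitor cells were measured for 20 of 23, of which 3 rose and 8 fell (median -0.63, or -0.45 with values raised to the floor). Cd27 was at 1628 and 1669 in KO CMP and 10.9 and 9.92 in replated cells, at least 75.9-fold lower, and Flt3, a receptor of multipotent progenitors, fell (-5.14 ± 0.28). Cd34, which is part of the CMP gate and is also found on mast cells, was at 5052 and 5426 in KO CMP and 3673 and 4564 in replated cells and did not pass (adjusted p = 0.148). The 11 calls of this list became 7 without either replated array.

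Lymphoid genes fell in 9 of 24 measured (of 29 listed), with 1 risen and a median of -0.71 (-0.49 with values raised to the floor and -0.44 against WT CMP). Of the 24, 6 lay at or below the floor on all 4 arrays and 7 above it on all 4. Dntt, which adds bases at antigen receptor joints, was at 2343 and 2794 in KO CMP and 13.0 and 14.6 in replated cells, at least 118-fold lower. Notch1 fell (-2.29 ± 0.21), the B cell receptor chain Cd79b (-4.63 ± 0.21), and the B cell factor Pou2af1 was at least 13.9-fold lower. Pou2af1 was at 9.01 and 18.2 in WT CMP and 232 and 391 in KO CMP, and replated cells were not called against WT CMP (adjusted p = 0.299).

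DNA replication genes fell in 26 of 29 measured (of 31 listed) and rose in 0, with a median of -1.67, so that 89.7% of the measured members fell, the largest share called among the 33 lists. Mcm7, a subunit of the replicative helicase, was at 4236 and 3840.0 in KO CMP and 821 and 748 in replated cells (-2.36 ± 0.21, adjusted p = 6.67e-05), Mcm5 at 1827 and 1982 in KO CMP and 354 and 481 in replated cells (-2.21 ± 0.17), and Mcm6 fell (-1.78 ± 0.13). Gins1, of the same helicase, fell (-2.80 ± 0.24), and Ung, which removes uracil from DNA (-2.91 ± 0.14). Each of these had both replated arrays below both KO CMP arrays and well above the floor, though pairs without overlap made up 61.5% of all genes. Rrm2 was at 5219 and 5805 in KO CMP and 4449 and 5200.1 in replated cells and did not pass.

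Mitosis genes fell in 10 of 29 measured (of 30 listed), rose in 0, and had a median of -0.46. Cdk1 was at 2806 and 3245 in KO CMP and 947 and 945 in replated cells (-1.67 ± 0.20), Top2a at 2426 and 2476 in KO CMP and 1159 and 1516 in replated cells (-0.89 ± 0.16) and the centromere histone Cenpa fell (-1.30 ± 0.21). Mki67, the common marker of cycling cells, was at 874 and 609.8 in KO CMP and 701 and 646 in replated cells and did not pass (-0.12 ± 0.50, adjusted p = 0.932). The count of 10 depended on the arrays fitted and on the size of change asked for, being 6 in the fit of the 4 arrays alone, 5 without either KO CMP array, 3 without either replated array and 2 with a minimum of 2-fold. Whether the 2 lists differ was not tested.

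Inhibitors of cyclin-dependent kinases and targets of p53 rose in 10 of 21 measured (of 22 listed) and fell in 1, with a median of 0.72 (0.44 with values raised to the floor). Cdkn2a, whose products hold the cell cycle through Rb and p53, was at 14.5 and 14.4 in KO CMP and 139.9 and 106 in replated cells, below the floor in KO CMP and at least 4.85-fold higher in replated cells (adjusted p = 3.35e-05). Its neighbour Cdkn2b was at 10.1 and 9.53 in KO CMP and 32.9 and 31.2 in replated cells, at least 1.27-fold higher. Zmat3, a p53 target, was at 268 and 57.8 in KO CMP and 3071 and 3123 in replated cells (4.64 ± 0.62), with KO CMP arrays far apart. Cdkn1a, the gene of p21, was at 100.3 and 155 in KO CMP and 1607 and 1525 in replated cells (3.65 ± 0.50), Phlda3 rose by 2.79 ± 0.30 and Gadd45a by 1.90 ± 0.24. Cdkn1b and Cdkn2d did not pass, with differences of -0.11 and 0.11. Of 14 BCL2 family genes measured (of 18 listed) 1 rose, Bcl2l1, the gene of the survival protein Bcl-xL, by 0.79 ± 0.20, and that call was lost in the fit of the 4 arrays and without the first KO CMP array or either replated array (adjusted p up to 0.121). The count lay between 0 and 3 over the settings.

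**Figure D4:**
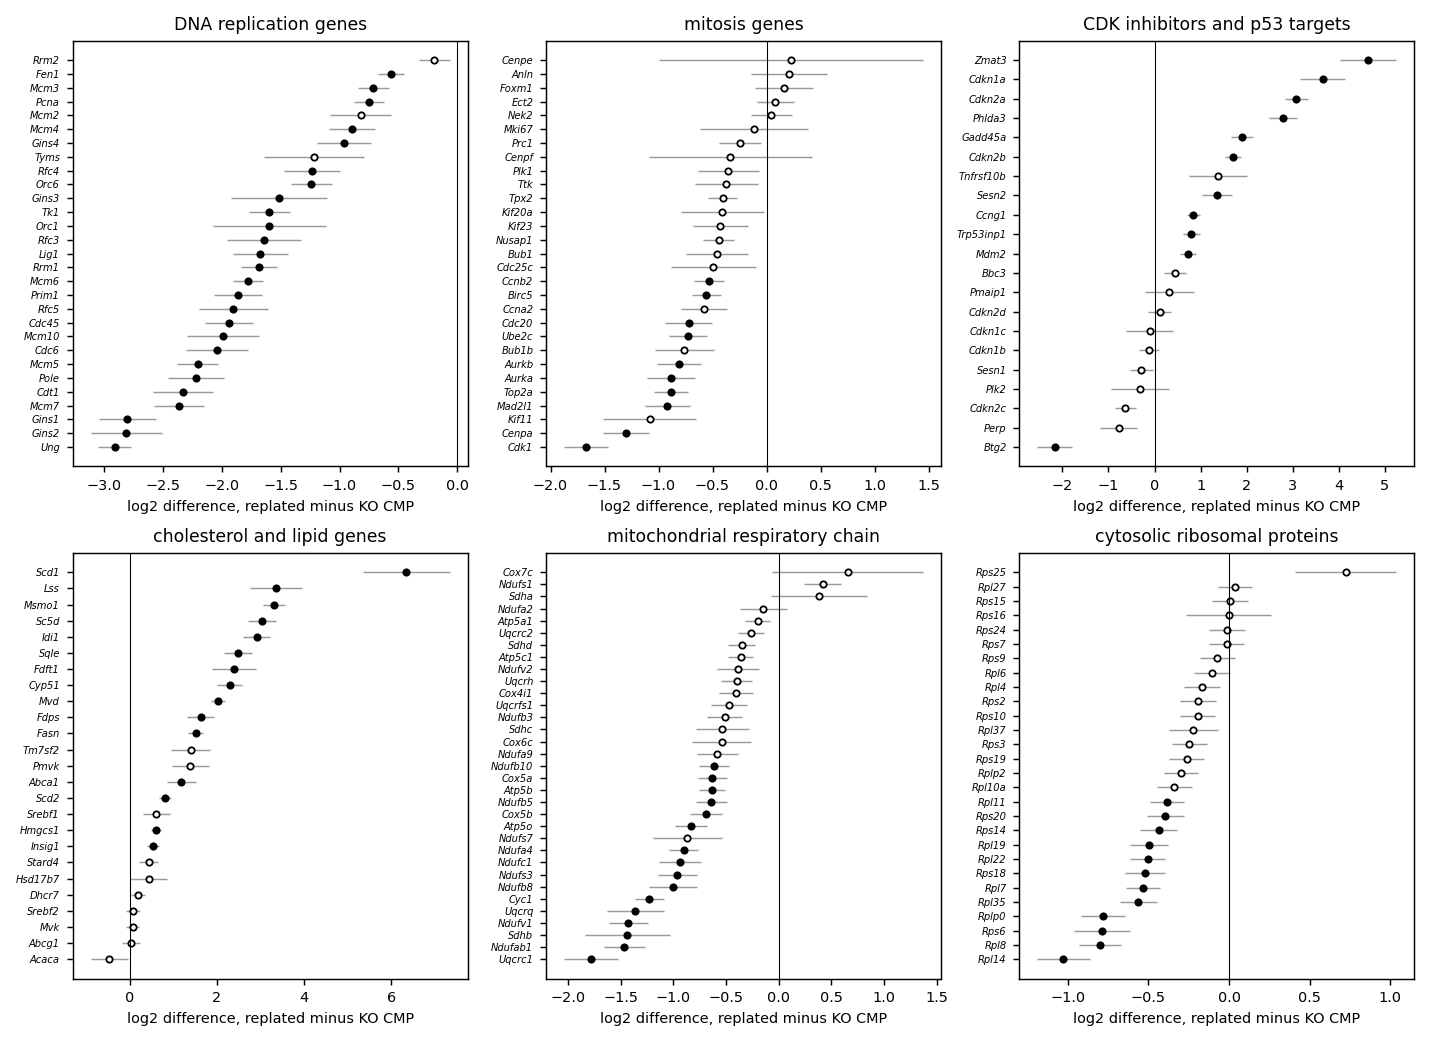
Log2 difference of replated cells minus KO CMP (horizontal axis, ± SE from limma) for each measured gene of 6 lists, filled where the adjusted p was below 0.05. Filled points lie below 0 for 26 of 29 replication genes, 16 of 33 respiratory chain genes and 12 of 28 ribosomal protein genes, and above 0 for 15 of 25 cholesterol and lipid genes.

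Genes of cholesterol and fatty acid synthesis rose in 15 of 25 measured (of 31 listed) and fell in 0, with a median of 1.39. Idi1, which makes the isoprenoid building block, was at 680.2 and 537 in KO CMP and 4415 and 4669 in replated cells (2.91 ± 0.30, adjusted p = 0.000175). The sterol enzymes Msmo1, at 298 and 219.9 in KO CMP and 2583 and 2488 in replated cells, and Sc5d, at 67.9 and 73.0 in KO CMP and 567 and 586 in replated cells, rose by 3.31 ± 0.24 and 3.03 ± 0.32. Another Sc5d probe set above the floor was at means of 66.4 in KO CMP and 71.5 in replated cells. It did not pass (0.11 ± 0.57, adjusted p = 0.949), so the rise of Sc5d rests on 1 probe set. Mvd rose by 2.02 ± 0.17 and Fasn, the fatty acid synthase, by 1.51 ± 0.17. Scd1, which desaturates fatty acids, reached 5328 and 5648 from KO CMP arrays at 221 and 20.7, of which the second lay below its floor, so that the difference of 6.34 ± 0.99 rests in part on background. The regulators Srebf1 and Srebf2 did not pass (0.61 ± 0.32 and 0.07 ± 0.16).

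Lysosome genes rose in 11 (36.7%) and fell in 5 (16.7%, against 13.1% of all genes) of 30 measured (of 36 listed), with a median of 0.48. Ctsd, given above among the granule proteins, and Tpp1 rose by 2.67 ± 0.14 and 1.36 ± 0.17, while Ctss, Ctsl and the sulfatase Arsb fell, Arsb to at least 15.7-fold lower. Glycolysis and hypoxia genes rose in 8 (33.3%) and fell in 3 (12.5%, against 13.1% of all genes) of 24 measured (of 28 listed). The glucose transporters Slc2a1 and Slc2a3 rose by 1.48 ± 0.12 and 1.22 ± 0.13, from 3078 and 2849 to 8279.8 and 8291 for Slc2a1, and P4ha1, a collagen hydroxylase induced by low oxygen, by 3.04 ± 0.28. Pdk1, which keeps pyruvate out of mitochondria, was at 4314 and 4059 in KO CMP and 445 and 415 in replated cells and fell (-3.28 ± 0.13), and Egln3, an oxygen sensor, was at least 23.4-fold lower. Gapdh, Ldha and Pkm did not pass, with differences between -0.18 and 0.22.

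Genes of protein folding stress and amino acid supply rose in 8 and fell in 4 of 25 measured. Xbp1, a factor of secretory cells, was at 531 and 367 in KO CMP and 1669.7 and 1873 in replated cells (2.00 ± 0.19) and Slc3a2, an amino acid transporter chain, rose by 2.56 ± 0.30. Phgdh, which starts serine synthesis, fell (-5.60 ± 0.22), from 2729 and 3125 to 60.9 and 59.6, and Psat1, the next enzyme (-1.18 ± 0.15). Ribosomal protein genes fell in 12 of 28 measured (of 42 listed) and rose in 0, with a median of -0.28. Rpl14 was at 1971 and 1633 in KO CMP and 914 and 848 in replated cells (-1.03 ± 0.16) and Rplp0 at 7601 and 7197 in KO CMP and 4516 and 4084 in replated cells (-0.78 ± 0.14). The count of 12 became 4 in the fit of the 4 arrays, between 4 and 6 without any 1 of those arrays, and 1 with a minimum of 2-fold, while the fit of the 8 KO arrays gave 7 and eBayes with a trend and robust variances 19. Respiratory chain genes fell in 16 of 33 measured (of 35 listed) and rose in 0, with a median of -0.62. Uqcrc1, of complex III, was at 2363 and 2419.6 in KO CMP and 696 and 695 in replated cells (-1.78 ± 0.26), Cyc1 at 1220.4 and 1190.1 in KO CMP and 515 and 513 in replated cells (-1.23 ± 0.14), and Ndufab1, of complex I, fell (-1.47 ± 0.20). Without the second KO CMP array 10 were called and without the second replated array 8, and 7 passed a minimum of 2-fold.

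Interferon-stimulated genes fell in 12 of 30 measured (of 33 listed) and rose in 0, with a median of -1.03 (-0.83 with values raised to the floor). Gbp3, a guanylate-binding protein, was at 1003 and 1255 in KO CMP and 44.9 and 37.6 in replated cells (-4.77 ± 0.36), Ifit2 was at least 12.6-fold lower and Ifih1, a sensor of viral RNA, fell (-2.95 ± 0.27). Against WT CMP 7 of the list were called. Ifi44l was at 281 and 492 in KO CMP, 6.27 and 6.08 in WT CMP and 5.19 and 5.30 in replated cells, at least 17.1-fold lower than in KO CMP and not called against WT CMP (adjusted p = 0.664).

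Immediate early genes rose in 6 and fell in 2 of 24 measured. Klf2 was at 62.5 and 56.9 in KO CMP and 528 and 579 in replated cells (3.21 ± 0.51), Ier3 and Klf6 rose by 2.37 ± 0.35 and 1.72 ± 0.17, and the nuclear receptor Nr4a3 was at least 5.03-fold higher. Myc, which drives growth, was at 2772 and 2733 in KO CMP and 680.3 and 806 in replated cells and fell (-1.89 ± 0.20). Fos and Egr1 did not pass. Chemokines and their receptors rose in 4 (16.7%) and fell in 8 (33.3%) of 24 measured (of 26 listed). Of the 24, 7 lay at or below the floor on all 4 arrays and 9 above it on all 4. Besides Ccl2, Ccl7 was at 9.78 and 10.2 in KO CMP and 243 and 237 in replated cells, at least 9.55-fold higher, and Ccl1 at least 1.69-fold. Cxcr4, the receptor that keeps progenitors in the marrow, was at 8093 and 8394 in KO CMP and 1012 and 945 in replated cells and fell (-3.08 ± 0.18).

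Cytokine receptor chains were divided, with 9 risen and 9 fallen of 23 measured (of 26 listed). Beside the mast cell receptors above, Il1r1, a chain of the interleukin 1 receptor, was at 1757 and 2915 in KO CMP and 39.0 and 32.5 in replated cells and fell (-5.99 ± 0.23), and Ifngr1 fell (-2.62 ± 0.19). Adhesion genes rose in 5 (18.5%, against 9.45% of all genes) and fell in 9 (33.3%, against 13.1%) of 27 measured (of 28 listed). Cadm1, by which mast cells hold to nerves and fibroblasts, was at 66.9 and 115 in KO CMP and 4219 and 7134 in replated cells (5.97 ± 0.68), while Alcam fell (-3.80 ± 0.20), Cd24a (-2.25 ± 0.12) and Itgal (-3.87 ± 0.36).

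Enzymes and readers of DNA methylation rose in 1 and fell in 7 of 18 measured (of 23 listed), with a median of -0.47 (-0.19 against WT CMP). Tet1, a relative of Tet2, was at 588 and 812 in KO CMP and 23.1 and 40.4 in replated cells and fell (-4.50 ± 0.45), and Tet3 did not pass, at 146 and 183 in KO CMP and 316 and 191 in replated cells. Dnmt3b, which places new methyl groups, was at 2066 and 2511 in KO CMP and 96.7 and 207 in replated cells and fell (-4.01 ± 0.30). Uhrf1, which guides methylation behind the replication fork, fell (-1.18 ± 0.11). Idh2, which makes a co-substrate of TET enzymes, fell on its brighter probe set (-1.87 ± 0.23) but not on a second one, which was at means of 1028 and 1136 (0.14 ± 0.19, adjusted p = 0.726). Mbd3, a relative of the methylation readers, fell (-1.02 ± 0.16). Dnmt3a and Dnmt1 did not pass, with differences of -0.88 and -0.34. Without the second replated array 5 of the 8 calls were made.

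Among genes measured on all 4 arrays, the 12 largest rises were those of Tpsb2, Bhlhe40, Csf2rb2, Prkcb, Cacng8, Nmb, Cd55, Cadm1, Dnaja4, Cd200r4, Trgv4 and Pilrb1, between 5.72 and 8.03 on the log2 scale. Prkcb, a protein kinase C, was at 65.4 and 148 in KO CMP and 9189 and 8981 in replated cells (6.53 ± 0.41), and Cd55, which guards cells against complement, at 89.2 and 120.0 in KO CMP and 7763 and 8449.6 in replated cells (6.29 ± 0.62). Dnaja4 rose by 5.89 ± 1.24, a call that was lost without either replated array or the second KO CMP array (adjusted p up to 0.0667). The 12 largest falls were those of Sgk3, Mef2c, Slco3a1, Car1, Cebpa, Marcks, Il1r1, Gdpd3, Cnn3, Serpinf1, Ffar2 and Phgdh, between -7.50 and -5.60. Sgk3, a kinase close to Akt, was at 4478 and 4593 in KO CMP and 27.0 and 23.2 in replated cells (-7.50 ± 0.17, adjusted p = 9.91e-09), and Mef2c, a factor of lymphoid and monocyte progenitors, at 3868 and 3348 in KO CMP and 41.3 and 23.5 in replated cells (-6.85 ± 0.24).

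Among genes at or below the floor in one group, the largest bounds upward belonged to Cma1, Tph1, Pla2g7, Enah, Pxdc1, Cyp11a1, Ptprg and Styk1. Pla2g7, which degrades platelet-activating factor, was at 12.5 and 13.8 in KO CMP and 6268 and 9923 in replated cells, at least 313-fold higher. Cyp11a1, which starts steroid synthesis, was at 22.8 and 23.3 in KO CMP and 4913 and 5169.7 in replated cells, at least 200.2-fold higher, and Enah, an actin regulator, at least 248-fold. Downward they belonged to Mpo, Ctsg, Sox4, S100a8, Adgrl4, Dpp4, Aff3 and Prtn3. Sox4, a factor of progenitors, was at 5502 and 5813 in KO CMP and 13.1 and 8.26 in replated cells, at least 260.3-fold lower, and Dpp4, a surface peptidase, at 4761 and 4915 in KO CMP and 19.2 and 18.6 in replated cells, at least 223-fold lower. Adgrl4, a receptor of the adhesion class, was at least 223-fold lower. The 207 named genes had 203 calls, and the called ones had 202 other probe sets. Of these 24 lay below the floor in both groups, 146 moved in the same direction at an unadjusted p below 0.05, 0 moved the other way and 32 did not pass. The last include second probe sets of Cacng8, Cyp11a1, Itgb3, Maf, Papss2 and Sc5d, with differences between -0.30 and 0.38. These were above the floor in both groups, with means in KO CMP between 32.5 and 66.4. That of Cyp11a1 was at means of 44.9 in KO CMP and 54.0 in replated cells (0.27 ± 0.39, adjusted p = 0.753). Among these genes only Papss2 had other probe sets that passed, so the rises of the rest lean on the probe set used.

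The other sorted populations give the same replated arrays another reference, so their values are set side by side and not counted as further evidence. Against KO LSK, the gate within which the replated cells began, 4054 genes were called (23.1%), against KO GMP 4102 (23.3%) and against WT CMP 3887 (22.1%). The shares of all genes that were higher in replated cells were 9.93%, 9.3% and 9.06% in the same order, and those lower 13.1%, 14.1% and 13.1%. Cpa3 was higher in replated cells by 6.86 ± 0.33 against KO LSK, 3.52 ± 0.33 against KO GMP and 3.77 ± 0.33 against WT CMP. For Mitf the differences were 2.50 ± 0.36, 2.74 ± 0.36 and 3.24 ± 0.36, and for Kit 1.20 ± 0.19, 1.88 ± 0.19 and 1.35 ± 0.19. Hdc and Mcpt8 depended on the reference. Hdc was higher than in KO LSK by 4.21 ± 0.95 (adjusted p = 0.013) and was not called against KO GMP (-0.71 ± 0.95, adjusted p = 0.726). Mcpt8 was higher than in KO LSK by 1.85 ± 0.25 (adjusted p = 0.000824) and lower than in KO GMP (-0.93 ± 0.25, adjusted p = 0.0297). Hoxa9, below the floor on both replated arrays, was at 1553 and 1639.8 in KO LSK and 419 and 396 in KO GMP. Meis1 was not called against KO LSK or KO GMP (adjusted p = 0.636 and 0.0596).

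**Figure D5:**
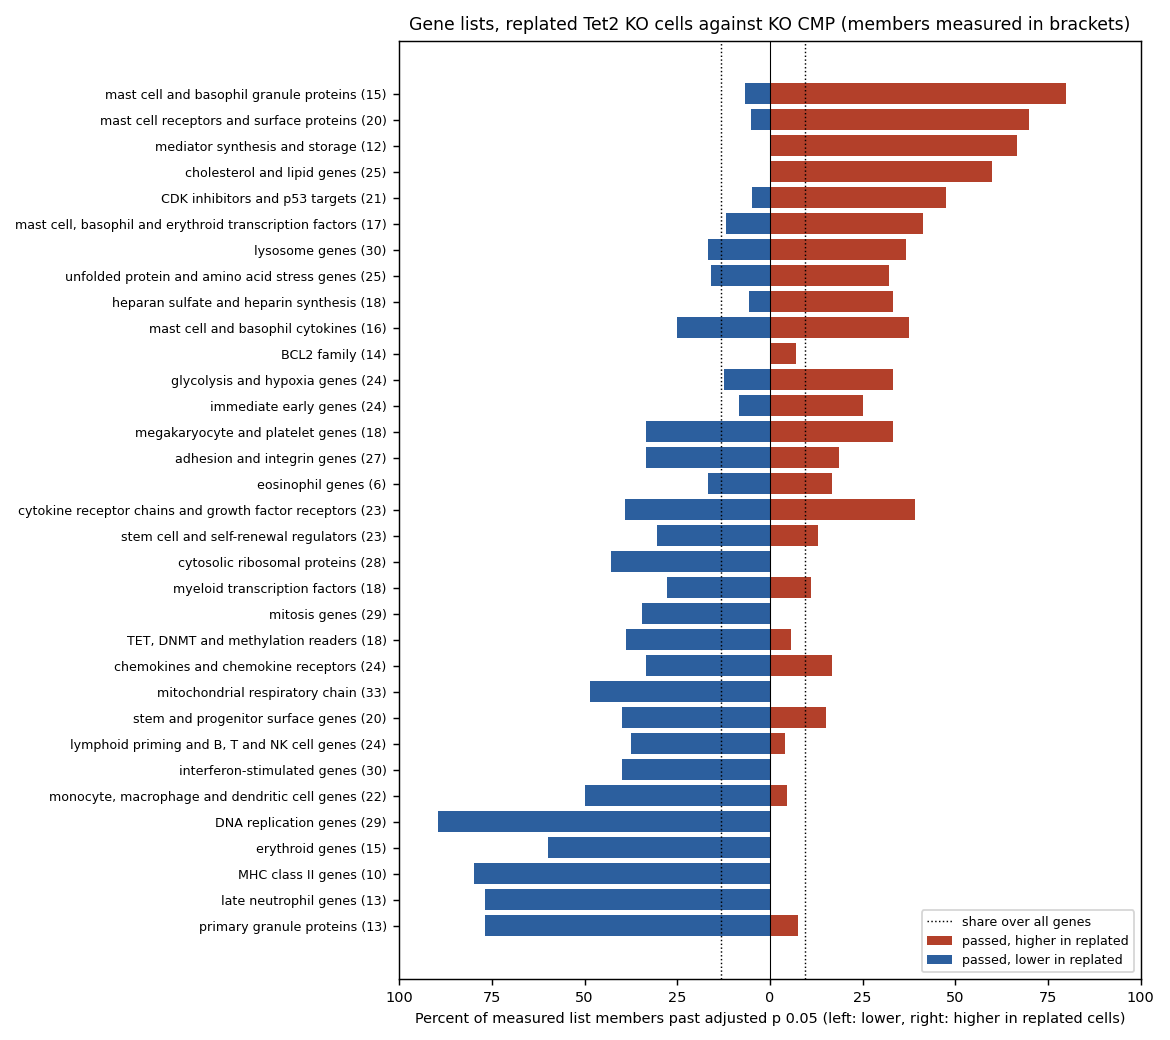
Share of the measured members of each of the 33 lists that passed the test (horizontal axis, percent), higher in replated cells to the right and lower to the left, ordered by median log2 difference, with dotted lines at the shares over all genes (9.45% and 13.1%). Granule proteins are at the top with 12 of 15 risen and primary granule proteins at the bottom with 10 of 13 fallen.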

How the data were processed

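RNA of sorted or cultured mouse cells (5 ng a sample) was amplified, labelled with biotin and read on Affymetrix arrays, per the labels' protocols. The authors deposited linear RMA intensities, with RMA named per the submitters' processing notes and its version not given in the sources used here. Whether all 14 arrays were normalized together is not stated there.

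From these intensities log2 values were taken. Limma 3.58.1 in R 4.3.3 fitted 1 mean per group over all 14 arrays in 7 groups (7 residual degrees of freedom), with eBayes, a two-sided test and Benjamini-Hochberg adjustment over 45101 probe sets, at an adjusted p below 0.05. The scripts were tested on simulated data. Of the probe sets 34958 named 1 gene, 932 several and 9211 none in the platform annotation, and 34754 of the first matched the RefSeq table of GRCm38.p6. For each gene the probe set of highest mean log2 value was kept, which gave 18194 genes. After leaving out the X and Y chromosomes 17568 were counted. The floor of an array was its highest value among 27 Bacillus control probe sets, and folds called "at least" raise lower values to it. Array number limits the precision.

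The members and lists were chosen with earlier results of these data known. Named genes were the 12 largest rises and falls measured on all 4 arrays without overlap, the 8 largest bounds each way, up to 5 members of each list by p, every called member of the first 6 lists, and a fixed set of regulators. Every other gene named, such as Mcpt8, Hdc, Cst7, Cx3cr1, Cdkn1a, Scd1 and list members given as not passing, was chosen after its values were seen. Alternatives covered the arrays fitted, scaling, low values, probe set choice, reference, size of change and leaving out each array. Leaving out each array from KO CMP minus WT CMP was added after seeing the data.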

Additional observations from a re-analysis of the deposited data

How the results depend on the processing

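The count of 3958 genes lay between 3049 (with a minimum of 2-fold) and 4370 (mean of all probe sets of a gene) under the alternatives that kept all arrays of the comparison, and between 2427 and 4229 when 1 array was left out in turn. The 336 calls among list members became 250 to 340 with 1 array left out. For KO CMP minus KO LSK, 132 calls became 201 when probe sets below the floor were left out, and 63 to 257 with 1 array left out. For KO CMP minus KO GMP, 98 calls became 17 to 133. Quantile normalization or subtracting array medians moved 0 of the 33 list counts by more than 1.5 times. Genes higher in replated cells made up 42.0% of the calls, and 39.9% to 45.8% over the settings. With the mean of all its probe sets Tet2 gave a log2 difference of 1.78 (adjusted p = 0.0241), opposite in sign to the brighter probe set alone, by the construction of that mean. Of 203 called named genes 184 passed without each of the 14 arrays in turn, 19 did not, and 187 passed under the other settings apart from the 2-fold minimum. With the replicate number as a block, 3839 genes were called, and 110 and 79 in the 2 comparisons of sorted KO cells. Replicate deviations of KO CMP and replated arrays correlated at 0.045, so no shared deviation was seen. A correlation over all probe sets, many of them at background, cannot decide whether the replicate numbers pair the samples. With 2 arrays a group, values near the floor have no order and small differences cannot be called.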
